A study of Mus musculus with 2 samples.

Results

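Genes that encode the actins and the actin-binding scaffolds of dendritic spines were followed in mice across nucleus classes of the hippocampus and between 2 libraries. They are Actb, Actg1, Actn1, Actn2, Actn4, Cttn, Cttnbp2, Dbn1, Ppp1r9a and Ppp1r9b, chosen by name and function, and they are 10 of the 32285 genes in the deposited count matrices. The study sequenced nuclear RNA from single hippocampal nuclei of 1 Capza2 heterozygous knockout library (CAPZA2+/-) and 1 wild-type library. Capza2 encodes an alpha subunit of the capping protein that closes the barbed end of the filament, and the series set out to compare cell population proportions between the genotypes. The labels give the tissue as hippocampus holding neurons and glia, and they give no age, sex, strain, number of animals or design of the knockout allele. With 1 library per genotype there was no replicate check, so every difference below is a difference between 2 libraries and carries no test.

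Actin filaments fill the head and neck of the dendritic spine, the small protrusion that receives most excitatory input in the hippocampus, and their assembly and disassembly change the spine's shape. Alpha-actinins cross-link the filaments and tie them to receptors, cortactin holds branched filaments together, and drebrin coats filaments in spines. Neurabin (Ppp1r9a) and spinophilin (Ppp1r9b) bind actin and bring protein phosphatase 1 to it. The same actins also form the cytoskeleton of glia, so none of the 10 genes was taken as a marker of neurons.

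After barcodes with fewer than 500 genes or more than 5% mitochondrial UMIs (unique molecular identifiers, each counting 1 captured RNA molecule) and likely doublets were left out, 6795 nuclei remained in the heterozygote library and 6094 in the wild-type library, with median depths of 5770 and 6658.5 UMIs. The nuclei were clustered without the 10 genes, and clusters were named from marker genes, which gave 9 classes that held 50 or more nuclei per library. Those classes were dentate granule-like, CA1 pyramidal-like, CA3 pyramidal-like, subicular or cortical excitatory-like, inhibitory neuron-like, astrocyte-like, oligodendrocyte-like, oligodendrocyte precursor-like and microglia-like nuclei. The names below leave out "like". Their median depths ran from 1464 UMIs in microglia to 16968 in CA3 nuclei, an 11.6-fold range. The libraries shared 13 barcodes. Transthyretin (Ttr), the secreted product of the choroid plexus, stood at 1.63 UMIs per nucleus in the heterozygote library and 0.453 in the wild-type library. Mixed nuclei (4.49% and 4.20%) and a shallow unnamed group (227 and 38 nuclei, median depths 669 and 795.5 UMIs) were kept out of the classes.

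Levels are given as CPM, the UMIs of a gene scaled to 1e6 UMIs of all genes in a class, with the heterozygote value first and the wild-type value second throughout. CPM values are compared within a gene and not between genes, because gene length and priming sites change how many UMIs a transcript yields. Details of the counting, intronic reads included, are not given in the sources used here. All intervals are 95% intervals that cover counting error only.

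By CPM the cytoplasmic actins had their highest levels in glia. Actb, on chromosome 5 (142903115 to 142906754, minus strand, mm10), encodes beta-actin. Its level was 1070.1 and 1062 CPM in microglia and 1095 and 1016 CPM in oligodendrocytes, and these classes did not separate. Astrocytes followed with 577 and 543 CPM, oligodendrocyte precursors with 527 and 414 CPM, and dentate granule nuclei with 337 and 316 CPM. The other neuron classes lay lower, at 223 and 228 CPM in CA1, 196 and 202 in subicular or cortical, 173 and 201 in inhibitory and 155 and 176 in CA3 nuclei. Both libraries thus placed every glial class of the 9 above every neuron class for Actb. Cajal-Retzius nuclei, too few for the 9 classes (37 and 30), had 732 and 697 CPM. Among all 14457 genes with at least 200 UMIs, 10.6% had every neuron class below every other class in both libraries.

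Actg1, on chromosome 11 (120345690 to 120348542, minus strand), encodes gamma-actin, which differs from beta-actin at a few residues near the amino terminus. Its level was 291 and 249.9 CPM in oligodendrocytes, 266 and 267 CPM in microglia and 203 and 172 CPM in astrocytes. Dentate granule nuclei had 101 and 89.3 CPM, and the remaining neuron classes lay between 47.8 and 65.0 CPM. Oligodendrocyte precursors differed most between the libraries, at 197 and 98.4 CPM, and the wild-type value lay inside the dentate granule range, so the glial and neuronal classes of Actg1 overlapped. The profiles of Actb and Actg1 over the 9 classes were alike, with a Pearson r of 0.99 on log2(CPM + 10), a description over classes that share libraries and depth.

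The order of the actins was largely that of depth in reverse. Actb stood at 1.61 to 2.97 UMIs per nucleus over all 18 class and library values, a 1.85-fold range, although the median depth differed 11.6-fold between classes. Actg1 stood at 0.419 to 0.932 UMIs per nucleus, a 2.22-fold range. By contrast Cttnbp2 ran from 0.151 to 18.9 UMIs per nucleus, a 125-fold range, and Ppp1r9a from 0.434 to 4.24. Counted per nucleus, the actins were not highest in glia. Actb stood at 2.97 and 2.825 UMIs in CA3 nuclei, 2.16 and 2.01 in oligodendrocytes and 1.69 and 1.77 in microglia. Actg1 stood at 0.916 and 0.832 in CA3 nuclei and 0.419 and 0.445 in microglia. Within a class, nuclei above the median depth were compared with those at or below it, where a library held at least 100 UMIs of the gene. The Actb CPM was lower in the deeper nuclei in 18 of 18 comparisons, with a median ratio of 0.647 (range 0.388 to 0.849), and the Actg1 CPM was lower in 17 of 17, with a median ratio of 0.669. The median ratio was 0.489 for Ttr, which was lower in 16 of 16, and lay between 0.922 and 1.12 for Actn1, Actn2, Actn4, Cttn, Cttnbp2, Dbn1 and Ppp1r9a. In the shallow unnamed nuclei Actb reached 2889 and 2648 CPM and Actg1 967 and 883 CPM, above every named class with levels. The part of RNA outside the nuclei in the actin levels was not tested.

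**Figure D1:**
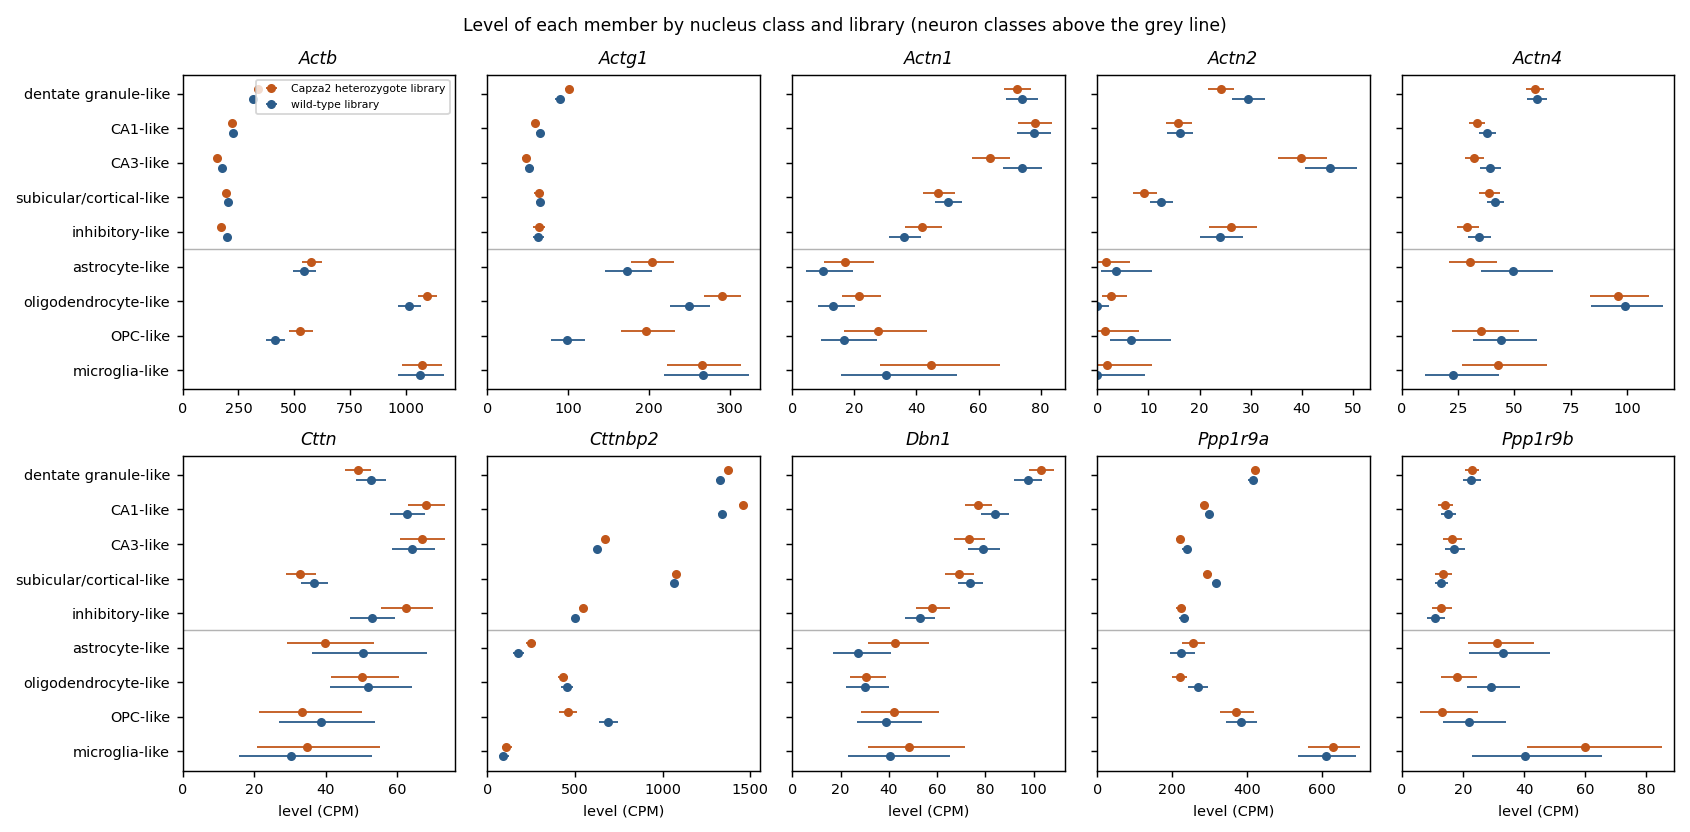
Level of each of the 10 genes (CPM, linear axes from 0) in 9 nucleus classes, with 1 point per library and bars for 95% counting intervals. Actb and Actg1 are highest in microglia and oligodendrocytes, while Actn2 and Dbn1 have every neuron class of the 9 above every glial class.

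**Figure D2:**
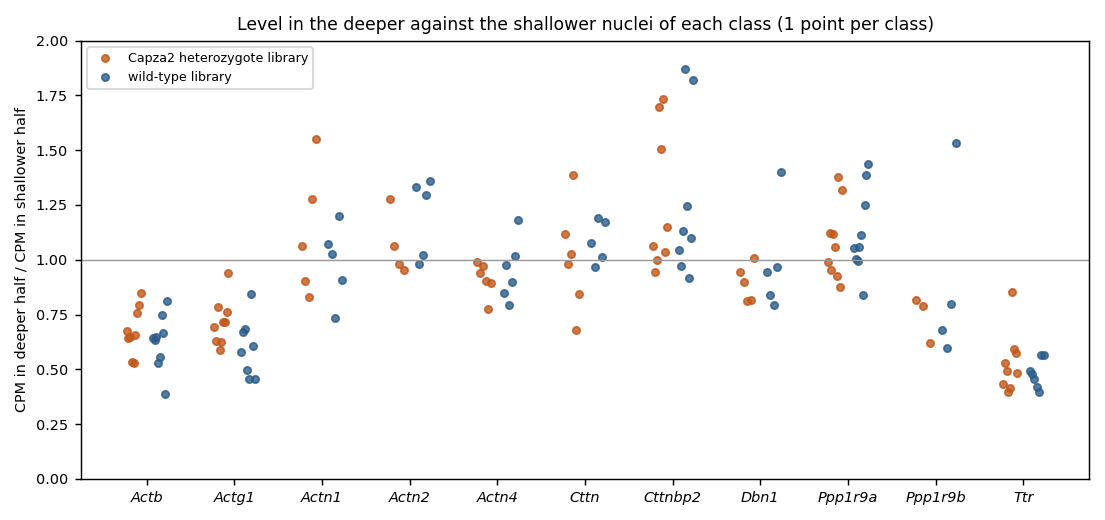
CPM in nuclei above the median depth of their class divided by CPM in the others, for each gene and for Ttr, with 1 point per class and library that held at least 100 UMIs of the gene. All 18 Actb points, all 17 Actg1 points and all 16 Ttr points lie below 1.

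Among the alpha-actinins, Actn2 was the most class-restricted of the 10 genes by its range. It lies on chromosome 13 (12269426 to 12340760, minus strand) and encodes the alpha-actinin of cardiac and skeletal Z-discs, which in neurons is known to bind the NMDA receptor subunit NR1 and sits in spines. Its level was highest in CA3 nuclei, at 39.9 and 45.4 CPM, followed by dentate granule nuclei (24.1 and 29.4 CPM) and inhibitory nuclei (26.2 and 24.0 CPM), which overlapped each other. CA1 nuclei had 15.9 and 16.1 CPM and subicular or cortical nuclei 9.17 and 12.4 CPM. The glial classes lay at 0 to 6.63 CPM on 6 UMIs or fewer per library, and the wild-type microglia and oligodendrocytes held none, which allows up to 7.57 and 1.89 CPM by a limit of 3 counts. Among the 9 classes every neuron class lay above every other class in both libraries for Actn2 and for Dbn1, an arrangement that 4.05% of the 14457 genes had. Classes with fewer than 50 nuclei in a library, left out of this count, did not all keep to it. Choroid plexus nuclei had 15.9 and 33.0 CPM of Actn2 on 7 UMIs in each library. Cajal-Retzius nuclei, a neuron class, had 0 UMIs in 37 and 30 nuclei. The upper limits of their exact Poisson intervals were 41.5 and 46.8 CPM, above the CA3 level in each library. This class can therefore not be placed above or below the glial classes for Actn2.

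At least 1 Actn2 UMI was found in 47.1% and 45.0% of CA3 nuclei (median depths 16968 and 13875.5 UMIs), against 0.531% and 0% of oligodendrocytes (1752 and 1846 UMIs). Once every nucleus was thinned to 1000 UMIs the shares were 3.08% and 5.68% in CA3 nuclei and 0.275% and 0% in oligodendrocytes. At the finer clustering the CA3 class split into a subgroup with the CA2 markers Amigo2 (32.6 and 28.7 CPM) and Ntf3 (36.2 and 33.5 CPM) and another with little Amigo2 (1.97 and 4.23 CPM). Actn2 stood at 48.3 and 47.6 CPM in the first subgroup and at 34.0 and 42.6 CPM in the second. This split was described after its values were seen.

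Within the inhibitory class Actn2 varied with the subtype. Sst or Pvalb interneurons had 38.5 and 35.4 CPM (114 and 116 UMIs in 180 and 236 nuclei), close to the CA3 level. Vip or Cck interneurons had 7.72 and 6.98 CPM on 9 UMIs in each library. Neurogliaform or Lamp5 interneurons had 0 UMIs in 50 heterozygote nuclei, which allows up to 5.28 CPM by the same limit of 3 counts, and 5.80 CPM in 76 wild-type nuclei. The Sst or Pvalb values lay above those of both other subtypes in both libraries. Cttnbp2 differed less between these subtypes, at 585 and 555 CPM, 473 and 380.1 CPM, and 486 and 486 CPM in the same order.

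Pyramidal clusters also differed in Actn2. The CA1 cluster led by Galntl6, Nell1 and Chrm3 had 7.51 and 7.75 CPM, and the CA1 cluster led by Man1a, Cpne7 and Adamtsl1 had 27.3 and 25.8 CPM. Among the subicular or cortical clusters, the one led by Dpp10, Cdh18 and Foxp2 stood highest at 23.1 and 29.0 CPM, and the one led by Pdzrn3, Tshz2 and Gpc6 lowest at 3.40 and 4.96 CPM. In both libraries the Man1a cluster lay above the other CA1 cluster, and the Foxp2 cluster above the Tshz2 cluster. The order of the Man1a and Foxp2 clusters differed between the libraries.

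**Figure D3:**
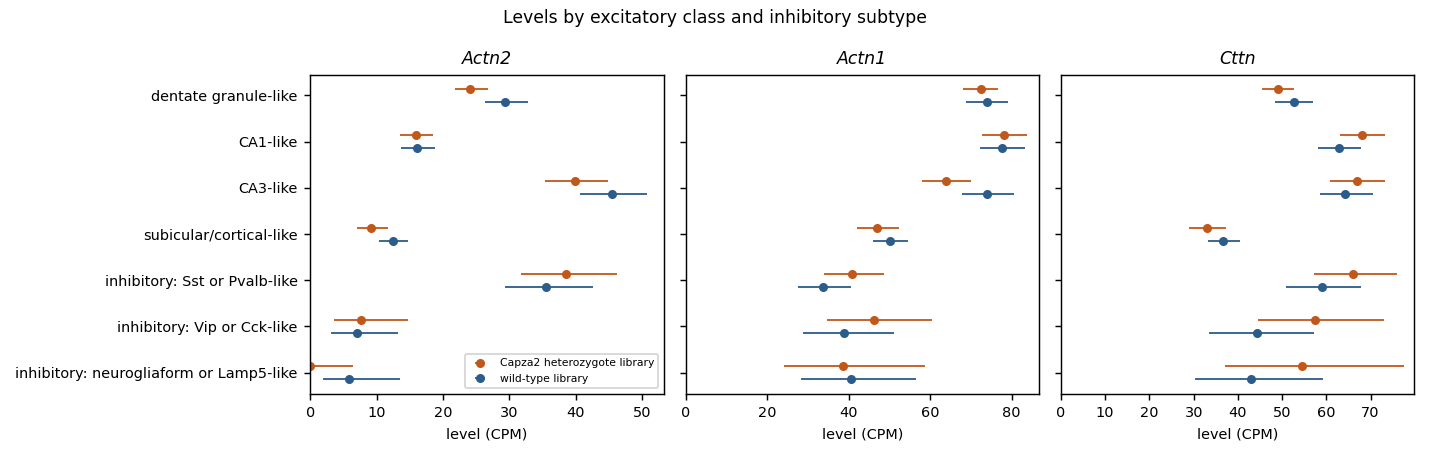
Level (CPM, linear axes from 0) of Actn2, Actn1 and Cttn in 4 excitatory classes and 3 inhibitory subtypes, with 1 point per library and bars for 95% counting intervals. Actn2 is 38.5 and 35.4 CPM in Sst or Pvalb interneurons and at most 7.72 CPM in the other inhibitory subtypes, while Actn1 and Cttn overlap between the subtypes within their intervals.

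Actn1, on chromosome 12 (80167547 to 80260371, minus strand), encodes a broadly expressed, calcium-sensitive alpha-actinin. Its level was 78.1 and 77.7 CPM in CA1, 72.4 and 73.9 CPM in dentate granule, 63.8 and 73.9 CPM in CA3 and 47.0 and 50.2 CPM in subicular or cortical nuclei. Inhibitory nuclei (41.9 and 36.0 CPM) overlapped microglia (44.6 and 30.3 CPM on 23 and 12 UMIs), and astrocytes were lowest at 16.9 and 9.85 CPM. The excitatory classes of Actn1 therefore had the highest values of the 9 classes, with dentate granule and CA3 nuclei not separated. The heterozygote microglia value has an interval of 28.3 to 66.9 CPM, which takes in the subicular or cortical level. Choroid plexus nuclei, too few for the 9 classes, had 79.4 and 89.6 CPM on 35 and 19 UMIs.

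Actn4, on chromosome 7 (28893248 to 28962340, minus strand), encodes the alpha-actinin of motile, non-muscle cells. Oligodendrocytes had the highest level, at 96.1 and 99.1 CPM, and dentate granule nuclei the next, at 59.1 and 59.9 CPM. The other 7 classes lay between 22.7 and 49.3 CPM and overlapped in large part. Among the 9 classes the 3 alpha-actinin genes were thus highest in different ones, Actn1 in CA1, Actn2 in CA3 and Actn4 in oligodendrocyte nuclei.

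Cttn, on chromosome 7 (144435733 to 144471009, minus strand), encodes cortactin, which binds the Arp2/3 complex and actin at branch points. It varied least of the 10 genes, with a ratio of 2.01 between the highest and lowest class mean. CA3 (66.9 and 64.3 CPM) and CA1 nuclei (68.1 and 62.9 CPM) were highest, and the order of these classes changed with the processing. Microglia (34.9 and 30.3 CPM) and subicular or cortical nuclei (32.9 and 36.7 CPM) were lowest.

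Cttnbp2, on chromosome 6 (18366478 to 18514843, minus strand), encodes a cortactin-binding protein enriched in dendritic spines that also binds striatins. Its level was 1461 and 1340.0 CPM in CA1, 1373 and 1327 CPM in dentate granule and 1076 and 1065 CPM in subicular or cortical nuclei. CA3 nuclei had 671 and 625 CPM and inhibitory nuclei 545 and 502 CPM. Microglia had the lowest level, 109 and 90.8 CPM, 14-fold under CA1 by the class means. Clusters of the subicular or cortical class ran from 579 and 516 CPM to 1788 and 1641 CPM in the cluster led by Fras1, Grm8 and Ldb2.

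Cttnbp2 lies 0.70 Mb from Capza2 on the same chromosome. An antisense gene, Gm15594, lies within it and gave 3163 and 2739 UMIs over all nuclei. In the classes other than microglia it gave 3.21 to 7.42 UMIs per 100 Cttnbp2 UMIs. Of 12028 genes with at least 500 UMIs, Gm15594 had the profile most like that of Cttnbp2 over the 9 classes, with an r of 0.99. The strand settings of the counting are not given in the sources used here, so reads of the pair cannot be told apart with certainty.

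Dbn1, on chromosome 13 (55473429 to 55488111, minus strand), encodes drebrin, the filament-coating protein of spines. Its level was 103 and 97.6 CPM in dentate granule, 77.0 and 83.8 CPM in CA1, 73.2 and 79.2 CPM in CA3, 69.1 and 73.7 CPM in subicular or cortical and 58.1 and 52.7 CPM in inhibitory nuclei. The glial classes lay between 27.1 and 48.5 CPM. Among the classes with too few nuclei for the 9, choroid plexus nuclei had 99.9 and 104 CPM (44 and 22 UMIs) and endothelial nuclei 99.3 and 101 CPM (12 and 10 UMIs). The gap between inhibitory nuclei and microglia (48.5 and 40.4 CPM) was narrow, and the separation of neurons from glia was lost under 6 of 7 other settings of the processing. Over the 9 classes the profile of Dbn1 was most like those of Add2 (r of 0.99), Fbxo34 and Dmtn, and Add2 and Dmtn encode actin-binding proteins of the membrane skeleton, beta-adducin and dematin.

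Ppp1r9a, on chromosome 6 (4902917 to 5165661, plus strand), encodes neurabin. Microglia had the highest level, 630.0 and 611 CPM, followed by dentate granule nuclei (421 and 416 CPM) and oligodendrocyte precursors (372 and 384 CPM). The other neuron classes lay between 221 and 318 CPM, and astrocytes and oligodendrocytes between 220.1 and 268 CPM. At least 1 Ppp1r9a UMI was found in 56.0% and 54.6% of microglia at median depths of 1464 and 1469.5 UMIs. At 1000 UMIs per nucleus the shares were 45.2% and 46.3% in microglia, 34.3% and 33.6% in dentate granule and 17.7% and 20.7% in inhibitory nuclei. Microglia thus also led these classes at equal depth. Choroid plexus nuclei, too few for the 9 classes, had shares of 22.6% and 57.7% at that depth, in 62 and 26 nuclei.

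Ppp1r9b, on chromosome 11 (94991035 to 95006899, plus strand), encodes spinophilin. Its highest level was also in microglia, 60.1 and 40.4 CPM, but on only 31 and 16 UMIs. Astrocytes had 31.1 and 33.3 CPM, dentate granule nuclei 22.8 and 22.7 CPM and CA1 nuclei 14.1 and 15 CPM. Ppp1r9b CPM was lower in the deeper nuclei of a class in 6 of 7 comparisons, with a median ratio of 0.789. The spinophilin profile over classes was thus less well measured than that of neurabin.

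The profiles of the members over the 9 classes ranged from alike to opposed. Actn1 and Dbn1 had an r of 0.95, Actn2 and Dbn1 0.82, and Actg1 and Actn2 -0.88. The genes most like Actb were Romo1, Zmat2 and Chmp2a, and those most like Actg1 were Psma7, Tpt1 and Aurkaip1, each with an r of 1.00. Among the genes most like Actn1 were 1500035N22Rik and Rasgef1a (0.98), Actn2 was most like Mri1, 9230117E06Rik and Kcnh1 (0.97), and Actn4 most like D16Ertd472e, Cpd and Tex2 (0.94 to 0.95). Cttn had no close match, with 0.86 for Zbtb48, 0.81 for Kctd17 and 0.81 for Rcor3. Cttnbp2 was next most like Klhl15 and Rab11fip3 (0.96), Ppp1r9a was most like Smad3, Thumpd3 and Cnot6l (0.97 to 0.98), and Ppp1r9b was most like Dpp8, Otud5 and Srcap (0.97 to 0.98). These coefficients are descriptions over 9 points that share libraries and depth, and they use the mean of both libraries. Within single libraries some were lower, heterozygote first. They were 0.70 and 0.48 for Zbtb48 with Cttn and 0.76 and 0.98 for Klhl15 with Cttnbp2. For Cpd with Actn4 they were 0.72 and 0.94, and for Mri1 with Actn2 0.79 and 0.97.

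An actin gene whose CPM, but not UMIs per nucleus, was highest in glia is set beside 2 alpha-actinins and drebrin. The CPM of these others was highest in neurons among the 9 classes. The promoters of these 4 members are printed. Each is the RefSeq sequence of GRCm38.p6 from 250 to 51 bases before the start that RefSeq annotates, 5′ to 3′ on the gene's strand, with searched motifs in capitals. For these 4 genes that start lies inside the GENCODE M21 gene ends given above, so each window begins nearer to those ends than to the RefSeq start. The motifs, searched on both strands, were the CArG box bound by serum response factor, the CCAAT box, the GC box with the letters GGGCGG, and the TATA box with the letters TATAAA. The window of Actg1 is at chr11:120348546-120348745, Actn1 at chr12:80260414-80260613, Actn2 at chr13:12340783-12340982 and Dbn1 at chr13:55488127-55488326, all on the minus strand.
Actg1: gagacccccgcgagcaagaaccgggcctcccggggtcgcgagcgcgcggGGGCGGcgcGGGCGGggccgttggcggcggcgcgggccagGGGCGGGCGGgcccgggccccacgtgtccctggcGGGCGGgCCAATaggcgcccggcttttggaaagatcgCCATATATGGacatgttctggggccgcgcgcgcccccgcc
Actn1: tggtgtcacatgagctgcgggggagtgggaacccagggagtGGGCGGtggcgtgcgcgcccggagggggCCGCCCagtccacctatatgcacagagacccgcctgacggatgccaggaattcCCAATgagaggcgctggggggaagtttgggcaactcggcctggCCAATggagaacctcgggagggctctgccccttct
Actn2: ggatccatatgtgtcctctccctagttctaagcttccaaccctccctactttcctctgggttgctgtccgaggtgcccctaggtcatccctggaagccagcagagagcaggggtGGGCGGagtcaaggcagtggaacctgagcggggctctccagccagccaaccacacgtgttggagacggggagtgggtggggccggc
Dbn1: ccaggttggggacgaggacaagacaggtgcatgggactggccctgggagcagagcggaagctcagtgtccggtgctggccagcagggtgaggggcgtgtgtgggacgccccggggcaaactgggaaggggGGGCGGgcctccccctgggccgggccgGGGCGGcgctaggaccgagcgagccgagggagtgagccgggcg
Of 32851 mouse promoters of the same length, 1.16% hold a CArG box, 24.6% a GC box, 28.4% a CCAAT box and 9.14% a TATA box by these letters. The Actg1 window holds 1 CArG box, 5 GC boxes, of which some overlap, and 1 CCAAT box, and is 79% G or C against a median of 51.5% over all windows. The Actn1 window holds 2 GC and 2 CCAAT boxes, Actn2 1 GC box and Dbn1 2 GC boxes. The TATA box letters are not in these windows. Promoter entries were matched for 8 of the 10 genes.

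Capza2 itself, the targeted gene, stood at 67.5 CPM in the heterozygote library and 86.0 CPM in the wild-type library over all nuclei, a log2 ratio of -0.35 (95% interval -0.41 to -0.29). It was at least 20% lower in 7 of the 8 classes with 200 or more nuclei per library. The exception was microglia, with a log2 ratio of -0.12.

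None of the 10 members was at least 25% higher or 20% lower, the same fold in either direction, over all nuclei. Among the 14457 genes with at least 200 UMIs, 4.51% were at least 20% lower and 4.97% at least 25% higher in the heterozygote library. The largest ratios were those of Actg1, 90.0 against 77.3 CPM (log2 ratio 0.22, 0.16 to 0.28), and Actb, 302 against 268 CPM (0.17, 0.14 to 0.20). Averaged over the 8 classes with equal weight, the log2 ratios of Actg1 and Actb were 0.05 and -0.02. The libraries differed in their shares of nuclei from each class and in the number of shallow nuclei, which had high actin CPM. The shallow nuclei held 487 of the 16851 and 84 of the 14393 Actb UMIs, and 163 of the 5015 and 28 of the 4148 Actg1 UMIs. The part of these differences in the ratios over all nuclei was not tested. The other 8 members had log2 ratios between -0.11 (Actn2) and 0.08 (Cttnbp2) over all nuclei.

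Within classes, 60 of the 80 pairs of a gene and a class had at least 200 UMIs. Their log2 ratios ran from -0.29 to 0.51 with a median of -0.02, and 33 were below 0. No pair was at least 20% lower in the heterozygote library and 1 was at least 25% higher, Cttnbp2 in astrocytes. The shares of all genes over the same floor that were lower and higher were 3.67% and 4.09% in dentate granule nuclei, 5.87% and 2.42% in CA1, 9.97% and 2.08% in CA3 and 4.82% and 2.62% in subicular or cortical nuclei. They were 5.47% and 3.22% in inhibitory nuclei, 7.28% and 9.12% in astrocytes, 4.81% and 7.55% in oligodendrocytes and 8.14% and 8.38% in microglia. So 1 pair of 60 does not exceed the background. Oligodendrocyte precursors, with 198 nuclei in each library, fell just short of the 200 needed and are not in these counts. There Actg1 (log2 ratio 1.00, 0.60 to 1.40) and Actb (0.35, 0.14 to 0.56) were higher past the fold. Cttnbp2 (-0.59, -0.79 to -0.39) was lower past it, and Ppp1r9a was not past it (-0.05, -0.29 to 0.19). The other members had fewer than 200 UMIs there, and the share of all genes was not counted.

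**Figure D4:**
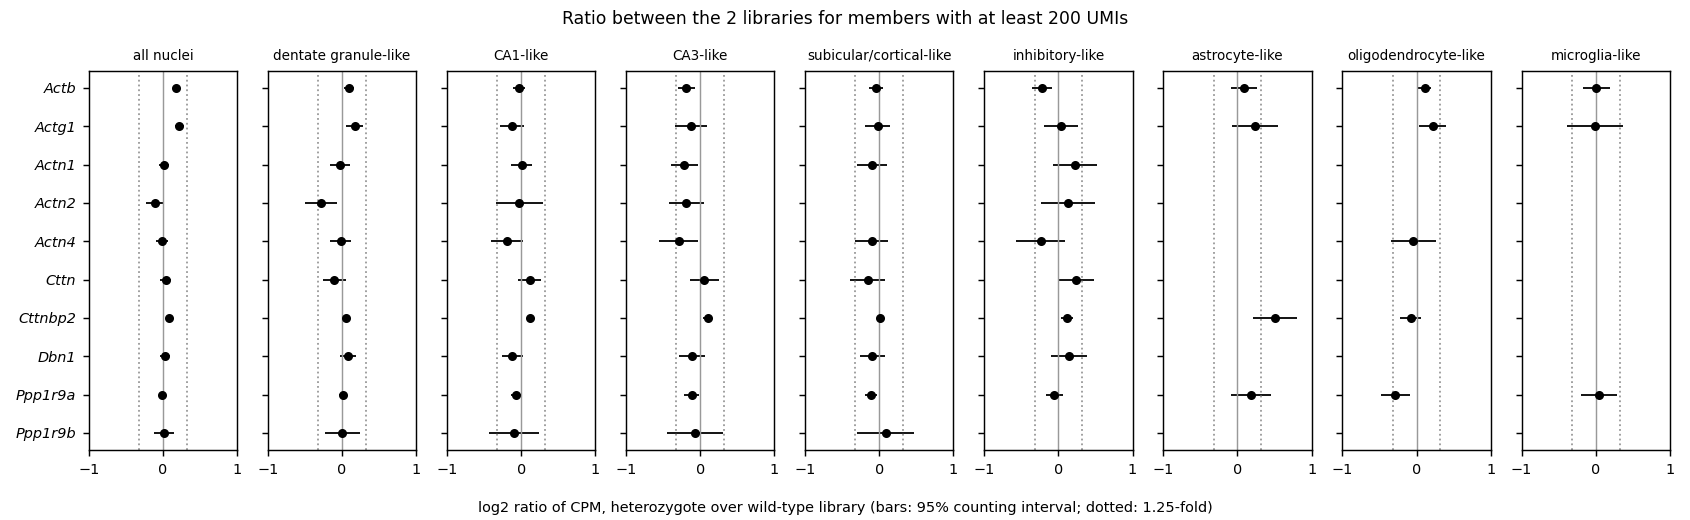
Log2 of the CPM in the heterozygote library divided by that in the wild-type library, for each gene with at least 200 UMIs over all nuclei and in 8 classes, with bars for 95% counting intervals and dotted lines at the fold used for calls. The class points lie between -0.29 and 0.51, and Cttnbp2 in astrocytes is the only one past the dotted lines.

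Cttnbp2 in astrocytes stood at 249 CPM on 280 UMIs in the heterozygote library and 175 CPM on 142 UMIs in the wild-type library, a log2 ratio of 0.51 (0.21 to 0.81). The shares of astrocytes with at least 1 UMI were 37.9% and 35.8%, and at 1000 UMIs per nucleus they were 19.7% and 18.3%. A heterozygote nucleus of 31470 UMIs held 40 of the 280 UMIs, against 5 in the highest wild-type nucleus. Without the highest nucleus of each library the log2 ratio was 0.37. It was 0.04 after thinning to 1000 UMIs and 0.05 with every nucleus weighted alike, -0.20 at the finer clustering, 0.11 with a minimum of 1000 genes and -1.35 with each library clustered separately.

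Markers of excitatory neurons, which hold much Cttnbp2, stood at 596 and 446 CPM in the same astrocytes, with a log2 ratio of 0.42 (0.23 to 0.61) and with 0 of 7 markers at 0. Astrocyte markers stood at 13204 and 13084 CPM. Inhibitory neuron markers went the other way there, at 618 and 697 CPM (-0.17, -0.34 to -0.01). The other marker sets went in both directions. The log2 ratio was 1.87 for choroid plexus, 1.11 for endothelial, 0.37 for oligodendrocyte and 0.29 for dentate granule markers. It was -0.16 for microglia and -1.04 for erythroid markers. The part of neuronal RNA in the Cttnbp2 level of astrocytes was not tested.

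Of the 6 other classes compared, Cttnbp2 had ratios above 0 in 5. The log2 ratio was 0.12 (0.09 to 0.16) in CA1, 0.10 (0.04 to 0.16) in CA3, 0.12 (0.04 to 0.20) in inhibitory, 0.05 (0.02 to 0.08) in dentate granule, 0.02 in subicular or cortical nuclei and -0.08 in oligodendrocytes. In oligodendrocyte precursors, with 198 nuclei in each library and so outside the 8 classes, Cttnbp2 stood at 460.4 CPM on 316 UMIs against 691 CPM on 625 UMIs, a log2 ratio of -0.59 (-0.79 to -0.39). At 1000 UMIs per nucleus the level there was 487 and 503 CPM, and the highest wild-type nucleus held 40 of the 625 UMIs. In the inhibitory class 1 heterozygote barcode of 328355 UMIs held 355 of the 2563 Cttnbp2 UMIs, and without the highest nucleus of each library the ratio was 0.04. The antisense gene Gm15594 had a log2 ratio of 0.15 (0.08 to 0.23) over all nuclei. The 10 genes with enough UMIs within 2 Mb of Capza2 include Cttnbp2 and Gm15594 themselves. Their log2 ratios ran from -0.55 to 0.25 around a median of -0.06.

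The Actn4 ratios were below 0 in 6 of 6 classes, with a mean log2 ratio of -0.15. The largest was in CA3 nuclei, 32.0 against 39.2 CPM (log2 ratio -0.29, -0.55 to -0.03), and the dentate granule ratio was -0.02 (-0.17 to 0.13). Thinning, equal weights for nuclei or the largest cluster of each class alone left 5 of 6 below 0. As reported none passed the fold. Under other settings Actn4 passed it in CA1 (-0.64) and inhibitory nuclei (-0.38) after thinning and in CA3 nuclei (-0.37) with every nucleus weighted alike. It also passed in inhibitory nuclei (-0.34) with a minimum of 1000 genes. With a floor of 50 UMIs it passed in astrocytes (-0.71, -1.41 to -0.01) on 34 and 40 UMIs. The medians of all genes in these classes ran from -0.07 in CA3 to 0.01 in oligodendrocytes.

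Of the 60 pairs, 10 had a counting interval above 0 and 8 an interval below 0. Of the 48026 pairs of any gene and these classes over the same floor, 8.75% had an interval above 0 and 13.1% below 0, which is the background of these counts. Cttnbp2 and Actn4 account for those given above. Ppp1r9a in oligodendrocytes stood at 220.1 against 268 CPM (log2 ratio -0.29, -0.48 to -0.09). By cluster it was 265 against 289 CPM (-0.12, -0.35 to 0.10) in the larger oligodendrocyte cluster and 138 against 229.6 CPM (-0.73, -1.11 to -0.35) in the smaller one. Actn2 in dentate granule nuclei stood at 24.1 against 29.4 CPM (-0.28, -0.50 to -0.06). Actg1 in oligodendrocytes stood at 291 against 249.9 CPM (0.22, 0.03 to 0.40). In dentate granule nuclei Actg1 stood at 101 against 89.3 CPM (0.17, 0.05 to 0.29), and the ratios in its clusters were 0.03 (-0.12 to 0.19) and 0.17 (-0.02 to 0.36). Actn1 in CA3 nuclei stood at 63.8 against 73.9 CPM (-0.21, -0.40 to -0.03), and Cttn in inhibitory nuclei at 62.6 against 52.9 CPM (0.24, 0.00 to 0.48). Ppp1r9a was also below 0 in CA3 (-0.11, -0.21 to -0.01) and in subicular or cortical nuclei (-0.11, -0.19 to -0.03). Actb was above 0 in dentate granule nuclei (0.09, 0.03 to 0.16) and oligodendrocytes (0.11, 0.02 to 0.20) and below 0 in CA3 (-0.19, -0.31 to -0.07) and inhibitory nuclei (-0.22, -0.35 to -0.08).

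Some of these class ratios compare different mixes of clusters. The dentate granule clusters held 1451 and 869 nuclei (the larger) and 600 and 610 nuclei (the smaller). Actb stood at 404 against 392 CPM (0.04, -0.04 to 0.12) in the larger and at 242 against 256 CPM (-0.08, -0.18 to 0.02) in the smaller, so neither interval excluded 0. In CA3 the subgroup with CA2 markers held 140 and 233 nuclei and the subgroup with little Amigo2 217 and 207. Actb stood at 179.7 against 161 CPM (0.16, -0.01 to 0.33) in the first and at 138 against 196 CPM (-0.51, -0.67 to -0.34) in the second, which is past the fold. For Actn4 both CA3 subgroups had ratios below 0, -0.22 and -0.27, and for Actn1 -0.16 and -0.23, each with an interval that holds 0. Actb kept the sign of its class in the inhibitory subtypes (-0.17, -0.30 and -0.20) and in both oligodendrocyte clusters (0.11 and 0.11).

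Other genes of the actin cytoskeleton, listed for their function, gave the surroundings of these values. Of 36 such genes, all had at least 200 UMIs over all nuclei. Of these, 2 were at least 20% lower, 2 at least 25% higher, and the median log2 ratio was -0.02 against -0.01 for all genes. The lower genes were Lasp1 (-0.34), a LIM and SH3 protein of actin bundles, and Palld (-0.33), the alpha-actinin-binding scaffold palladin. The higher genes were Pfn1 (0.34), which delivers actin monomers to growing filaments, and Gsn (0.43), the severing protein gelsolin. Among all 14457 genes, 4.51% were lower and 4.97% higher past the fold. These ratios over all nuclei mix classes whose shares differed between the libraries. Among the classes with at least 200 UMIs, Lasp1 passed the fold in 0 of 3 and Palld in 1 of 1. Pfn1 passed it in 1 of 6 and Gsn in 0 of 1. Within classes, Tpm1, a tropomyosin that lies along filaments, was past the fold in CA3 (0.45) and oligodendrocytes (0.68) and had 0.26 over all nuclei. Coro1c, a coronin, was past the fold in dentate granule (-0.37) and CA1 nuclei (-0.44) and had -0.27 over all nuclei.

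Genes of the proteins that the members bind were also listed. The catalytic subunits of protein phosphatase 1, the partners of neurabin and spinophilin, had log2 ratios of 0.07 (Ppp1ca), 0.08 (Ppp1cb) and 0.08 (Ppp1cc) over all nuclei. The striatins had -0.04 (Strn) and -0.15 (Strn4), and the other capping protein subunits -0.06 (Capza1) and -0.09 (Capzb). Of these 8 genes, Capza2 included, only Capza2 was past the fold over all nuclei. In inhibitory nuclei Capzb was also past it (-0.44), with a median over the list of -0.18 against -0.03 for all genes. In dentate granule nuclei the median over the list was -0.13, against -0.00 for all genes. It was -0.10 against -0.05 in CA1 nuclei and -0.11 against 0.01 in oligodendrocytes. In CA3 (-0.02 against -0.07) and subicular or cortical nuclei (-0.02 against -0.04) the list median lay above that of all genes. Astrocytes and microglia had only 2 and 1 genes of the list with enough UMIs. Each of these medians includes Capza2, the targeted gene. Of 9 paralogues of the members, 3 had enough UMIs, Cttnbp2nl (-0.08), Dbnl (-0.04) and Acta1 (0.05), and none was past the fold over all nuclei. Within classes Cttnbp2nl was past it in oligodendrocytes (0.42) and Dbnl in subicular or cortical nuclei (-0.47). The skeletal alpha-actinin Actn3 gave 33 and 33 UMIs over all nuclei and the cardiac actin Actc1 1 and 1.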

How the data were processed

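The authors deposited 1 matrix of raw UMI counts per library, made with Cell Ranger 7.1.0 on mm10 per the submitters' processing notes; gene models, strand and intron settings are not given in the sources used here. The barcode and gene-name columns of the deposited files held identifiers only. Barcodes with at least 500 genes and at most 5% mitochondrial counts were kept (7211 and 6424 of 7801 and 6512, heterozygote first), and the highest Scrublet scores up to 0.8% per 1000 barcodes were removed as doublets (5.77% and 5.14%). Counts were scaled to 10000 UMIs per nucleus, reduced to 2000 variable genes without the members and 30 components, and clustered together (scanpy 1.11.5, leidenalg 0.10.2, resolution 1). Clusters were named from at least 3 markers, and the naming and mixed-cluster rules were revised after the clusters were seen. UMIs were summed per class and library. Ratios used genes with at least 200 UMIs, a fold that is a CPM 25% higher or 20% lower in the heterozygote library and exact conditional binomial intervals, and levels exact Poisson and Clopper-Pearson intervals. The ratio script was tested on simulated data. Gene positions came from GENCODE M21.

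All 10 members are named, with members past the fold and the 3 genes of highest r per member. 1 such gene is not reported here. From the lists of other actin genes, paralogues and partners, up to 6 genes each past the fold over all nuclei or in at least 2 classes are named. Members and lists were chosen with earlier results of these data known. Alternatives changed the doublet rate, gene minimum, clustering, thinning, weighting, scaling, floor and fold. Leaving out the nucleus with the most UMIs of a gene was added after seeing the data.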

Additional observations from a re-analysis of the deposited data

Results flagged for a closer look

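Actb had log2 ratios on both sides of 0 with counting intervals that exclude 0. The ratio, heterozygote over wild-type library, was 0.093 in dentate granule nuclei and 0.109 in oligodendrocytes, against -0.19 in CA3 nuclei and -0.22 in inhibitory nuclei. By cluster the dentate granule ratios were 0.04 and -0.08, with intervals that hold 0. The CA3 ratios were 0.16 in the subgroup with CA2 markers and -0.51 in the other. The mixes of these clusters differed between the libraries. By subtype the inhibitory ratios were -0.17 (Sst or Pvalb), -0.30 (Vip or Cck, -0.56 to -0.04) and -0.20 (neurogliaform or Lamp5). Both oligodendrocyte clusters had 0.11. Of these subtypes and oligodendrocyte clusters, only Vip or Cck had an interval that excludes 0. The difference between these classes was not tested, since each rests on 1 library per genotype. CA3 nuclei of the heterozygote library were the deeper ones (median 16968 against 13875.5 UMIs), as were its inhibitory nuclei (10768.5 against 9777.5) and, by less, its dentate granule nuclei (6545 against 6294), while its oligodendrocytes were shallower (1752 against 1846). Actb CPM was lower in the deeper nuclei of every class and library. The part of depth in the opposite signs was not tested.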

How the results depend on the processing

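No paired analysis was possible because there is 1 library per genotype, and no replicate could be left out. Over all nuclei, all 10 members were under the fold as reported. With every class weighted alike, 9 of 9 were under it (Actn2 has no value there). In that setting 6 of the 9 ratios fell outside their counting intervals. The other settings were not run over all nuclei. Pairs at least 25% higher in the heterozygote library numbered 1 as reported, 2 with no doublets removed, 5 with each library clustered separately, 3 after thinning to 1000 UMIs, 3 with a floor of 50 UMIs, 0 with a floor of 500 UMIs and 0 at a fold of 1.5. Pairs at least 20% lower numbered 0 as reported, 2 with a minimum of 1000 genes, 2 with separate clustering, 10 after thinning, 1 with every nucleus weighted alike, 1 with the largest cluster of each class only and 4 with a floor of 50 UMIs. Thinning leaves few UMIs of most members, and 24 of 60 ratios then fell outside their counting intervals. The pairs past the fold also changed. Actg1 in astrocytes was 0.24 (-0.07 to 0.55) as reported. It passed with no doublets removed (0.33), a minimum of 1000 genes (0.39) and Leiden resolution 2 (0.35). With separate clustering (0.93) and thinning (0.39) it passed too, and under the other settings it did not. Actb in CA3 nuclei passed at -0.48 with a minimum of 1000 genes. The Cttnbp2 ratio in astrocytes (0.51) reversed to -0.20 at Leiden resolution 2 and to -1.35 with separate clustering. The cause was not tested. Members whose neuron classes did not overlap the others numbered 3 as reported and 1 with separate clustering. Actb kept this arrangement under all 7 other settings, Dbn1 under 1 of 7. The class of highest level was the reported one for 7 to 10 of the 10 members. Depth limits the glial values: 20 of 80 pairs, 18 of them in astrocytes, oligodendrocytes and microglia, lay under 200 UMIs. Without the nucleus holding the most UMIs of a gene, an alternative chosen after seeing the data, 59 of 60 ratios stayed within their counting intervals.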
